A study of Mus musculus with 4 samples.

Results

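The complement set described here holds 9 genes, namely *C1qa*, *C1qb*, *C1qc*, *C3*, *C4b*, *Cfb*, *Cfp*, *C3ar1* and *C5ar1*, out of 19491 genes listed in any of the 4 libraries of the series. The genes were chosen by name, as complement components and receptors made by leukocytes, with earlier results of these data known. Counts over them may therefore not be independent of those results. All 9 were listed in every library. CD45+ leukocytes were sorted from the brain or the dura mater of 8-week-old C57BL/6J mice, and each tissue was taken 3 days after photothrombotic injury (PTI, D3) or from controls. PTI clots the vessels under an illuminated patch of skull with a light-activated dye, and the control libraries are taken here as the sham animals of day 3 (S3). Each of the 4 groups (brain S3, dura S3, brain D3 and dura D3) was 1 library of the 10x Chromium 3′ v3 kit, no transgene or deletion is labelled for any of them, and the number of mice behind a library is not given in the sources used here. With 1 library per group there was no replicate and no test of the effect of injury or tissue. Every interval below is a 95% interval that covers counting error only, and every difference is one between these libraries.

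Complement is a cascade of proteins that tags dead cells and debris for removal and calls in leukocytes. The classical arm starts with C1q, which is built from A, B and C chains and in the brain is made mainly by microglia and other macrophages. It leads through C4 to C3, the central protein that is cleaved and laid down on targets, while factor B and properdin amplify that step in the alternative arm. The released fragments C3a and C5a act through the receptors encoded by *C3ar1* and *C5ar1*, which draw and activate myeloid cells.

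The 4 libraries held 14098 cells after filtering (2603 to 4438 each) and 37590286 to 72390201 unique molecular identifiers (UMIs, 1 per captured RNA molecule) in those cells. The median depth was 8252 UMIs per cell in brain S3, 9320 in dura S3, 14269.5 in brain D3 and 14156 in dura D3, so the injured libraries were deeper, and any pair of libraries shared 3 to 11 cell barcodes. Levels are UMIs summed over the cells of a class per 1000000 UMIs of that class (CPM), and are not divided by transcript length, so they are compared between classes and not between genes. In these sorted cells summed per class, fewer cells of a state and less RNA per cell cannot be told apart. Classes were rebuilt by clustering and named from markers with the ending "-like", so class shares or levels may differ from those of the study. Microglia-like cells numbered 431 in brain S3 and 627 in brain D3, and *P2ry12*, a microglial marker, stood at 1738 and 742.3 CPM in them. It stood at 23.7 CPM in the 1380 infiltrating-like macrophages of brain D3, which led with *Arg1* and *Gpnmb* and were almost absent from the other libraries (6, 1 and 20 cells in brain S3, dura S3 and dura D3). *Lyve1*+ and *Lyve1*− macrophages-like cells were found in all 4 libraries, with *Lyve1* at 312.2 to 679.3 CPM in the former and 3.28 to 5.06 CPM in the latter.

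The 3 C1q genes lie side by side on chromosome 4 (GRCm38, GENCODE vM21), all on the minus strand. *C1qb* spans chr4:136880129-136886187, *C1qc* chr4:136889804-136893065 and *C1qa* chr4:136895917-136898803. *C4b* (chr17:34728380-34743882) and *Cfb* (chr17:34856374-34862518) lie near each other on chromosome 17, where *C3* also lies (chr17:57203970-57228136). *Cfp* is on the X chromosome (chrX:20925454-20931555), *C3ar1* on chromosome 6 (chr6:122847138-122856161) and *C5ar1* on chromosome 7 (chr7:16246743-16259540). Of the 9 members, 6 had an entry among the RefSeq promoter sequences (GRCm38.p6). The promoters of *C1qb*, *C1qc* and *C3* are printed because the C1q genes shared 1 pattern across classes and *C3* followed another, as described below. Each is written 5′ to 3′ on the minus strand and holds only bases upstream of both the RefSeq start and the GENCODE gene, namely 250 bases at chr4:136886201-136886450 for *C1qb*, 99 bases at chr4:136893066-136893164 for *C1qc* and 250 bases at chr17:57228137-57228386 for *C3*. Capitals mark AGGAAGT on either strand (printed as its reverse complement ACTTCCT), letters that ETS factors of the myeloid lineage are known to bind, or TTGCNNAA, letters that C/EBP factors are known to bind.
C1qb: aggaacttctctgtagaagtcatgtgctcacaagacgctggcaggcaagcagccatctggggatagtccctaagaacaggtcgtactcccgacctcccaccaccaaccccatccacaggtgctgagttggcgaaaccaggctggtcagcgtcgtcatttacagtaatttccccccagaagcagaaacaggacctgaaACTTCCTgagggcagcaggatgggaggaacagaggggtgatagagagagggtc
C1qc: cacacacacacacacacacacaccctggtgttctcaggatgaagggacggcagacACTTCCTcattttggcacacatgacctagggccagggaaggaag
C3: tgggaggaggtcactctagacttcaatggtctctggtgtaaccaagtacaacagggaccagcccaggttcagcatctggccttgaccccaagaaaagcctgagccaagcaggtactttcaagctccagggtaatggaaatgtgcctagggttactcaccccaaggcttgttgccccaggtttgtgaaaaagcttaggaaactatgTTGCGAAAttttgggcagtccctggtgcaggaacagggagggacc
AGGAAGT occurred 53 bases before the RefSeq start of *C1qb* and 195 bases before that of *C1qc*, and TTGCNNAA 45 bases before that of *C3*. The RefSeq start of *C1qc* lies within the GENCODE gene, so the 99 bases printed end before it. On both strands of 250 bases upstream, AGGAAGT was found in 7.69% and TTGCNNAA in 9.56% of 32851 promoters, and the letters were searched after these promoters had been seen. Neither was found in the upstream bases that remained for *Cfp* (250), *C3ar1* (246) and *C5ar1* (48), so most of the *C5ar1* window was not searched. A match describes letters in the window, not a bound site.

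In the myeloid classes, members that differed by at least 2-fold between D3 and S3 were higher at D3 in all but 2 cases. A gene was compared in a class when both libraries had at least 20 cells of it and at least 50 UMIs of the gene together. In brain, 63 gene and class pairs of the 9 members over 9 myeloid classes could be compared, of which 26 were at least 2-fold higher at D3 and 1 was lower, against 2.82% higher and 2.66% lower among 56328 pairs of all genes. Their median log2 ratio was 0.65, beside −0.05 for all pairs. In dura, 15 of 63 pairs were higher and 1 lower, against 1.64% and 1.35% of 57459 pairs, with a median of 0.52 beside −0.06. The C1q chains gave 13 of the 27 brain calls and 9 of the 16 dura calls, and these chains were also the members with the most background RNA, as given below. Among these calls were all C1q chains in mature and immature granulocytes-like of brain and in granulocyte precursors-like of dura. Leaving the C1q chains out, 13 of 36 pairs in brain and 6 of 36 in dura were higher, with 1 lower in each. Between the sham libraries, 7 of 52 pairs were at least 2-fold higher in dura and 1 in brain, against 2.30% and 1.56% of 47228 pairs. That comparison shares brain S3 with the brain comparison and dura S3 with the dura comparison. Under other settings of clustering, filtering and depth the called pairs numbered 14 to 34 in brain, 9 to 24 in dura and 4 to 21 between the sham tissues, against 27, 16 and 8 here, beside 5.48%, 3.00% and 3.86% of the pairs of all genes in either direction. The heat map of all members by class and library shows where each gene was read out.

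**Figure D1:**
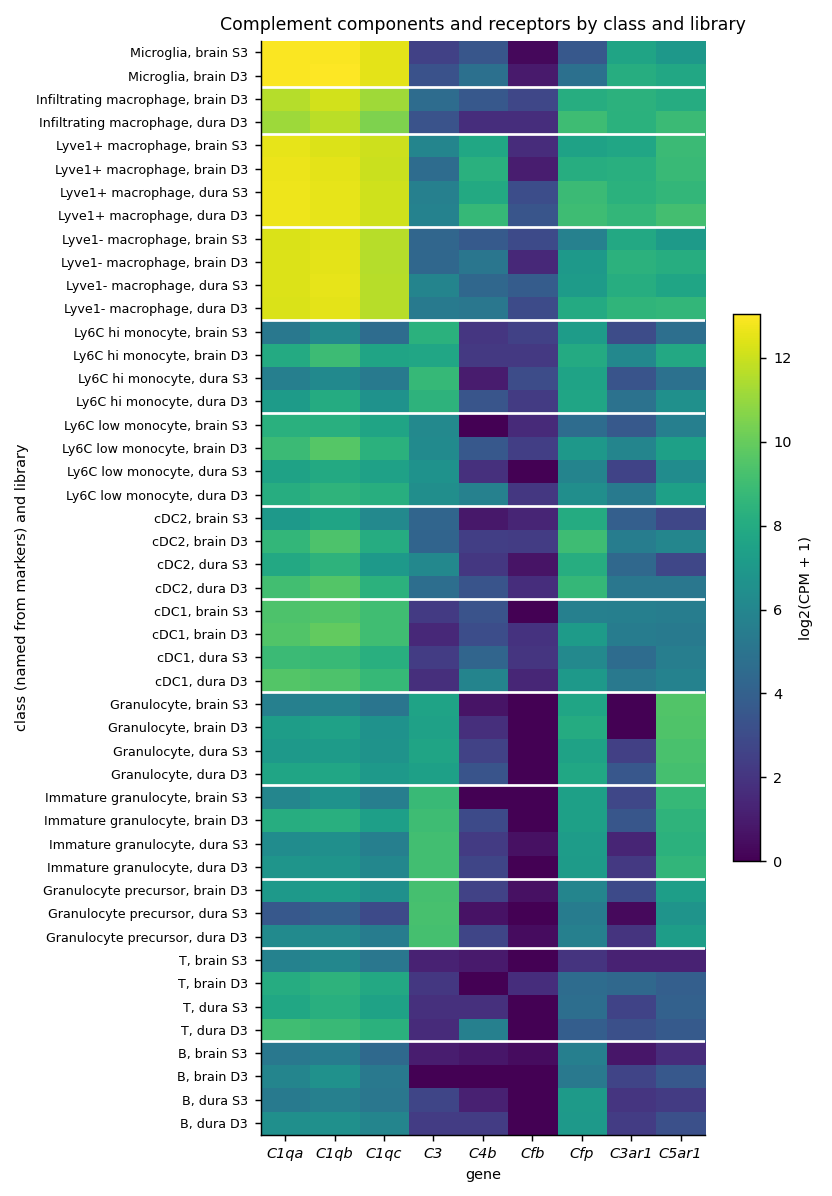
Level of each of the 9 members (columns) in each class and library (rows), as log2(CPM + 1) in colour. The C1q chains fill the macrophage and microglia rows, *C3* the granulocyte and Ly6C high monocyte rows, and *C5ar1* both.

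C1q was highest in microglia-like cells and was nearly the same there in sham and injured brain. The 3 chains, summed, reached 21780 CPM (21650 to 21910) in brain S3 and 22380 CPM (22290 to 22470) in brain D3, a log2 ratio of 0.04. *Lyve1*+ macrophages-like followed, with 15390 CPM in brain S3, 16250 in brain D3, 17070 in dura S3 and 17110 in dura D3. *Lyve1*− macrophages-like came next, with 13940, 14070, 14460 and 14120 CPM in the same order. The log2 ratios of D3 over S3 in these macrophage classes lay between −0.03 and 0.08, so the C1q level of resident-type macrophages differed far less between sham and injury than the 2-fold limit. All microglia-like and *Lyve1*+ cells carried UMIs of all 3 chains, as did 95.8% to 97.3% of *Lyve1*− cells.

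Infiltrating-like macrophages of the injured brain held less C1q per UMI and varied widely from cell to cell. Their sum was 9885 CPM (9851 to 9920), at a log2 ratio of −1.18 to the microglia-like cells of the same library. The middle cell had 8644 CPM, the cell at the 10th percentile 250.5 CPM and the cell at the 90th percentile 19480 CPM, whereas microglia-like cells of brain D3 ranged from 16050 to 33110 CPM between the same percentiles. All 3 chains were seen in 87.7% of the infiltrating-like cells. The chains did not differ equally: against microglia-like cells the log2 ratio was −1.40 for *C1qa*, −1.34 for *C1qc* and −0.91 for *C1qb*. Because these cells were many and deep, they still held 43.2% of all *C1qa* UMIs and 51.2% of all *C1qb* UMIs of brain D3, while microglia-like cells held 54.4% and 54.2% in brain S3. In dura, *Lyve1*+ cells were the main holders at both times, with 57.9% of *C1qa* UMIs in S3 and 64.7% in D3.

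The share of C1q UMIs that came from *C1qb* differed between classes. It lay within a few percentage points across libraries in microglia and macrophages and varied more in monocytes and cDC1. It was 36.7% in brain S3 and 37.7% in brain D3 for microglia-like cells, and 33.8% to 35.4% over the 4 libraries for *Lyve1*+ cells. For *Lyve1*− cells it was 40.8% to 41.2%. Infiltrating-like macrophages had 45.6% (45.4% to 45.7%) in brain D3 and 46.7% in the 20 cells of dura D3, and Ly6C high monocytes-like, the inflammatory blood monocytes, had 53.6% in brain S3 and 52.3% in brain D3. In dura the Ly6C high share was 45.4% in S3 and 51.3% in D3, with 41.4% to 49.4% and 49.2% to 53.3% as intervals. Ly6C low monocytes-like had 37.1% (32.45% to 41.96%) in brain S3 and 49.1% (47.1% to 51.1%) in brain D3, and cDC1-like cells 37.7% and 43.9%. Among the Ly6C low cells, 10% held 93.0% of the C1q UMIs in brain S3 and 89.4% in brain D3. Their brain S3 share thus rests on few of 64 cells, which the counting interval does not cover. The share therefore ran from *Lyve1*+ through microglia, *Lyve1*− and infiltrating cells to Ly6C high monocytes in the brain libraries. cDC2-like cells had 49.75% in brain S3 and 50.1% in brain D3, below the Ly6C high cells. T-like cells, whose C1q is taken as background below, had 41.6% and 40.3%, and B-like cells 43.6% and 49.3%. The part of background RNA in the Ly6C high share was not tested. The plot of C1q level and B chain share places the classes on both measures.

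**Figure D2:**
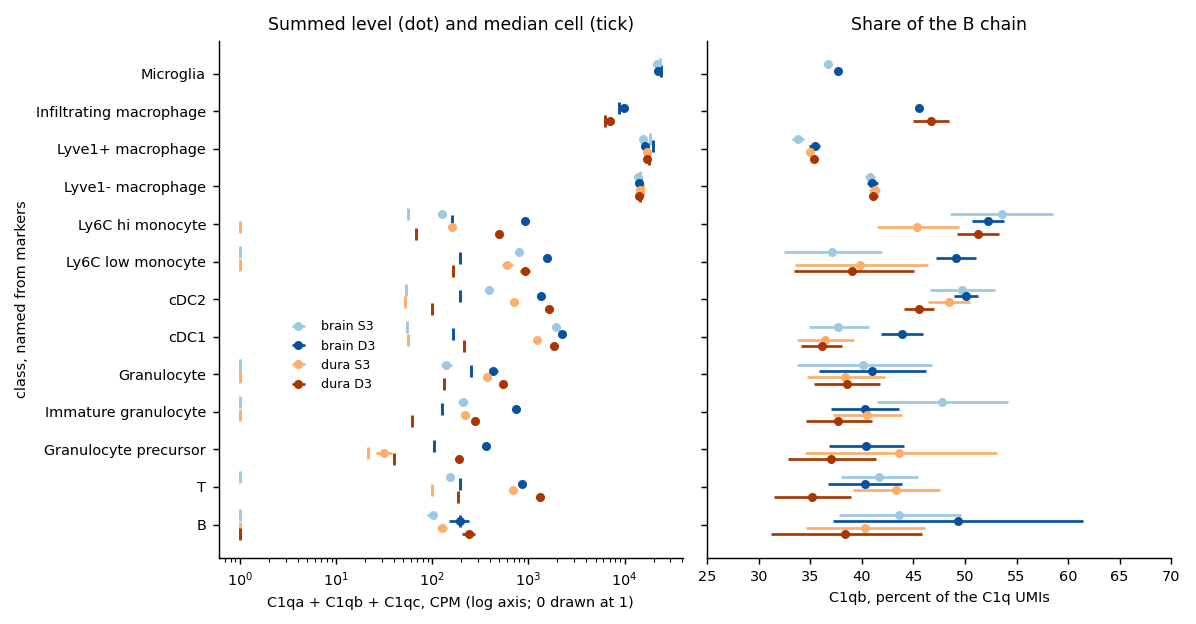
Left, summed C1q level (CPM, log axis) of each class in each library as a dot, with the median cell as a tick (a median of 0 is drawn at 1); right, the percentage of C1q UMIs from *C1qb*, with 95% exact binomial intervals. Microglia-like cells sit at 21780 and 22380 CPM with a share of 36.7% and 37.7%, infiltrating-like macrophages of brain D3 at 9885 CPM with 45.6%.

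C1q was lower by far in Ly6C high monocytes and cDC2, and higher in these classes at D3 than at S3. In Ly6C high monocytes-like it was 127.7 CPM in brain S3, 930.8 in brain D3, 161 in dura S3 and 500.5 in dura D3. These gave log2 ratios of 2.87 (2.72 to 3.02) in brain and 1.64 (1.51 to 1.77) in dura. The difference was uneven over cells: the median cell had 55.4 CPM in brain S3 and 160.4 in brain D3, and 10% of the cells held 73.8% of the C1q UMIs of brain D3. In cDC2-like cells, conventional dendritic cells that present antigen to helper T cells, C1q was 388.1 CPM in brain S3, 1342 in brain D3, 709 in dura S3 and 1637 in dura D3, and 10% of the cells held 71.9% to 85.6% of it. With 2500 cells drawn per library and clustered anew, the brain log2 ratio of cDC2-like cells was −0.29 for *C1qa* and −0.45 for *C1qc*, so their direction depends on which cells enter the class. In cDC1-like cells, which cross-present antigen to killer T cells, C1q was 1936 CPM in brain S3, 2227 in brain D3, 1217 in dura S3 and 1841 in dura D3, under 2-fold apart in each tissue, with 22 to 50 cells per library.

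Lymphocytes, which are not known to make C1q, gave the background. T-like cells had 154.8 CPM of C1q in brain S3, 849.7 in brain D3, 698.6 in dura S3 and 1312 in dura D3, with 849.7 near the 930.8 of Ly6C high monocytes-like in that library. B-like cells had 100.7, 192.7, 126.7 and 239.5 CPM in the same order, so the reference classes differed. The T-like C1q was uneven over cells. In the same order, 10% of the cells held 68.35%, 80.8%, 69.65% and 85.4% of it, and the median cell held 0, 1, 1 and 1 UMIs. The background means therefore rest largely on a minority of T-like cells. Over T-like and B-like cells together, *C1qb* stood at 56.5, 270.0, 114.7 and 238.9 CPM in the same order, so the background was itself higher at D3 in both tissues. In Ly6C high monocytes-like, *C1qa* and *C1qc* of brain S3 (36.1 and 23.2 CPM) lay below that background (47.7 and 29.7 CPM), and in brain D3 (248.1 and 196.3 CPM) near it (209.8 and 178.2 CPM). Subtracting the background left no ratio for these 2 chains there. Summed C1q of brain D3 was 430.5 CPM in mature and 740.3 in immature granulocytes-like, below T-like and above B-like cells of that library. In granulocyte precursors-like of dura D3 it was 187.8 CPM, below T-like and B-like cells of that library. Of 57 called values of members that were followed under other settings, a ratio was left for 39. Of these, 38 kept their direction and 35 stayed at 2-fold or more. The 57 values do not cover every comparison of members. The ILC2-like class, innate lymphoid cells of type 2, read 5180 CPM in dura S3 and 2239 in dura D3, but in dura S3 its median cell held 1 C1q UMI, 10% of its cells held 71.4% of them, and the summed *Lyve1*+ macrophage markers stood at 2626 CPM in it.

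*C3*, the central component, followed another pattern and was read out in the granulocyte line and in monocytes. Granulocyte precursors-like had 600.8 CPM in dura S3, 582.2 in dura D3 and 591.0 in brain D3. Immature granulocytes-like had 452.7 CPM in brain S3, 513.7 in brain D3, 547.0 in dura S3 and 543.6 in dura D3, and mature granulocytes-like 188.3, 178.7, 194.2 and 170.8 CPM. In each library *C3* thus stood higher in the earlier than in the mature granulocytes. Ly6C high monocytes-like had 317.5 CPM in brain S3, 207.5 in brain D3, 422.2 in dura S3 and 346.7 in dura D3, with log2 ratios of D3 over S3 of −0.61 (−0.75 to −0.48) in brain and −0.28 in dura. No granulocyte or Ly6C high class passed 2-fold for *C3*. Microglia-like cells were low, with 4.66 CPM in brain S3 and 8.71 in brain D3, but above the 1.24 and 2.38 CPM of T-like and B-like cells. Their log2 ratio of D3 over S3 was 0.903 (0.243 to 1.615), under 2-fold. Infiltrating-like macrophages had 23.5 CPM.

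Both pairs that were at least 2-fold lower at D3 concerned *C3*, in *Lyve1*+ macrophages-like of brain and in cDC2-like cells of dura. *Lyve1*+ cells had 60.5 CPM in brain S3, 23.8 in brain D3, 50.5 in dura S3 and 54.3 in dura D3, giving a log2 ratio of −1.34 in brain. The 8 granulocyte markers summed to 32810 CPM in brain S3, 16590 in brain D3, 15890 in dura S3 and 24840 in dura D3 in this class, and all 8 were detected in each. *Lyve1*+ cells with at least 5000 CPM of *S100a8* and *S100a9*, granulocyte calcium-binding proteins, had 107.5 to 200.3 CPM of *C3*, and the cells under that limit had 24.5, 9.14, 33.1 and 22.7 CPM in brain S3, brain D3, dura S3 and dura D3. Without the former cells the brain log2 ratio was −1.42. When cells were assigned 1 by 1 to marker lists instead of by cluster the ratio was 1.02, so its direction rests on how the class was drawn. In cDC2-like cells *C3* was 18.4 CPM in brain S3, 17.6 in brain D3, 67.6 in dura S3 and 24.95 in dura D3, so dura S3 stood above the other libraries. The log2 ratio was −1.44 for D3 over S3 in dura and 1.88 for dura S3 over brain S3, and both rest on the dura S3 value. In dura S3 the 222 *C3* UMIs lay in 21 of 176 cDC2-like cells (11.9%), and in dura D3 67 UMIs lay in 22 of 132 (16.7%). The higher level of dura S3 thus came from a smaller share of cells with more UMIs each. *Lyve1*− cells had 18.8 CPM in brain S3, 19.2 in brain D3, 59.0 in dura S3 and 40.3 in dura D3.

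**Figure D3:**
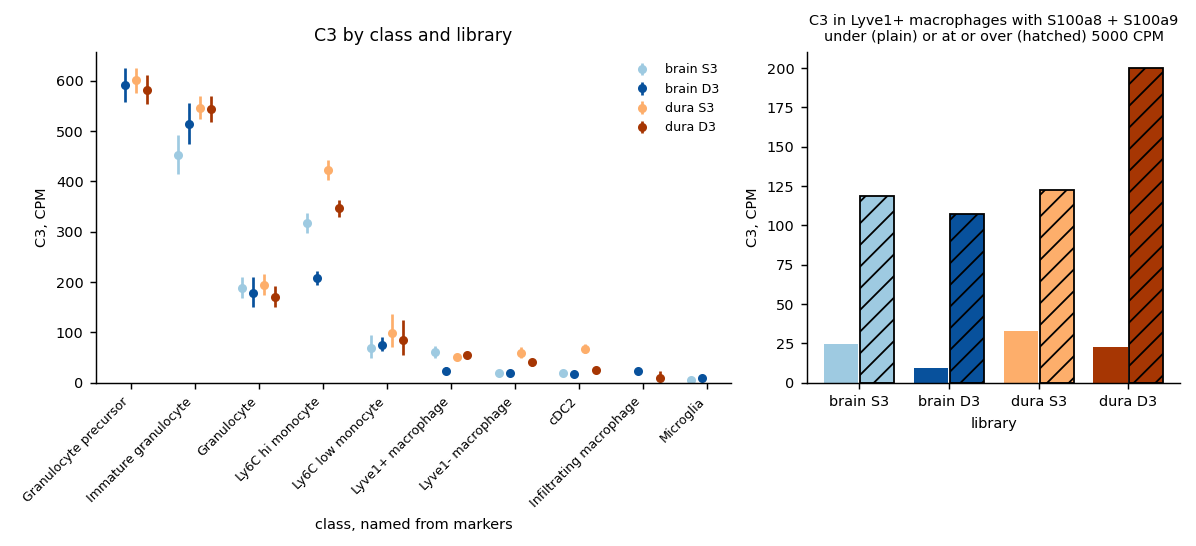
Left, *C3* level (CPM) by class and library, with 95% exact Poisson intervals; right, *C3* in *Lyve1*+ macrophages-like, split by whether a cell had under (plain bars) or at least (hatched bars) 5000 CPM of *S100a8* plus *S100a9*, drawn without intervals. Granulocyte precursors and immature granulocytes lie highest, and in each library the *Lyve1*+ cells at or over the limit lie above those under it.

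*C4b*, the classical-arm component cleaved after C1q has bound, was highest in *Lyve1*+ macrophages-like. These cells had 217.5 CPM in brain S3, 307.8 in brain D3, 240.2 in dura S3 and 431.9 in dura D3, with log2 ratios of 0.50 (0.32 to 0.69) in brain and 0.85 (0.75 to 0.94) in dura, both under 2-fold. They held 55.0% of the *C4b* UMIs of brain S3, 39.8% in brain D3, 77.1% in dura S3 and 80.9% in dura D3. In dura S3 they stood 12.5-fold over *Lyve1*− cells of the same library, 240.2 against 19.2 CPM. *C4b* and *Cfp* were the members at least 2-fold higher of 9 in that comparison and none was lower, against 10.5% higher and 2.58% lower of all genes. The 6 fibroblast markers, whose cells also make C4, summed to 59.9 CPM in *Lyve1*+ cells of dura S3 and 32.2 in dura D3, and to 2.16 and 1.04 CPM in brain S3 and brain D3. Their part in the *C4b* level was not tested. *C4a*, a near-identical copy of *C4b*, was not listed, and reads of the pair may have been counted for *C4b* or dropped, so these levels are uncertain in size.

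*C4b* was also higher at D3 in cells where it was scarce. It was 10.3 CPM in brain S3 and 27.6 in brain D3 in microglia-like cells, a log2 ratio of 1.42. *Lyve1*− cells went from 11.9 to 34.1 CPM in brain (1.52) and stood at 19.2 and 34.8 CPM in dura S3 and dura D3. In dura the calls for Ly6C high monocytes-like (1.02 to 9.68 CPM) and cDC1-like cells (18.2 to 58.3 CPM) stood beside 1.61 and 22.4 CPM in the T-like and B-like background of the same libraries, and the Ly6C high level of dura D3 was below that background. The background of dura D3 joined 50.4 CPM in T-like cells (25 UMIs) and 3.99 CPM in B-like cells (3 UMIs). The Ly6C high level lay between them. With cells thinned to 2000 UMIs the cDC1 ratio was −1.755.

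*Cfb*, which encodes the protease of the alternative arm, was scarce everywhere. All kept cells of a library held 50 to 259 UMIs of it, and no class of at least 20 cells exceeded 13.1 CPM, reached by *Lyve1*− cells in dura S3. Infiltrating-like macrophages held 71.8% of the *Cfb* UMIs of brain D3, at 5.81 CPM. Most classes held too few *Cfb* UMIs for a comparison of D3 with S3.

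*Cfp* encodes properdin, which stabilises the alternative-arm convertase, and it was spread over most myeloid classes. Microglia-like cells had little of it, at 10.9 CPM in brain S3 and 26.7 in brain D3, a log2 ratio of 1.30 (0.88 to 1.74). *C4b* and *Cfp* were the 2 members of 8 compared in microglia that were at least 2-fold higher at D3, against 3.88% of all genes, and none was lower against 4.19%. The median of all genes in that comparison was −0.18, and these ratios stand above it. In the same microglia-like cells the 8 infiltrating macrophage markers, all detected in both libraries, summed to 1044 CPM in brain S3 and 4923 in brain D3, beside 19110 in the infiltrating-like class. The 12 genes of a dissociation stress list summed to 27510 and 14940 CPM. The part of either, or of background RNA, in these calls was not tested.

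*Cfp* was higher in dura than in brain macrophages of sham mice. *Lyve1*+ cells had 179.2 CPM in brain S3, 281.9 in brain D3, 467.5 in dura S3 and 513.7 in dura D3, and the log2 ratio of the sham libraries, dura over brain, was 1.38 (1.22 to 1.55). *Lyve1*− cells had 51.7, 130, 143.8 and 250.9 CPM in the same order, with a sham ratio of 1.48 and a D3 over S3 ratio of 1.33 in brain. The T-like and B-like background of *Cfp* was 20.2 CPM in brain S3, 27.7 in brain D3, 106.9 in dura S3 and 85.8 in dura D3. Its UMIs came mostly from B-like cells except in brain D3, where T-like cells held 21 and B-like cells 14. B-like cells had 47.9, 38, 134.5 and 133.1 CPM, and T-like cells 2.91, 23.5, 25.5 and 14.1 CPM, in the same order. The tissue difference of the sham libraries was thus also seen there, and its cause was not tested. cDC2-like cells had 260.0 CPM in brain S3, 500.6 in brain D3, 278.5 in dura S3 and 406.3 in dura D3, just under 2-fold in brain at 0.95. Ly6C low monocytes-like went from 23.1 CPM (12 UMIs) in brain S3 to 122.8 in brain D3, a log2 ratio of 2.41. In cDC1-like cells *Cfp* went from 50.2 to 143.1 CPM in brain (1.51). Mature granulocytes-like stood at 205.5, 261.4, 181.3 and 220.5 CPM.

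Infiltrating-like macrophages lay near monocytes for *Cfp* and between monocytes and microglia for C1q. They had 279.4 CPM of *Cfp*, at a log2 ratio of 3.39 (3.22 to 3.56) to the microglia-like cells and of 0.17 to the Ly6C high monocytes-like of brain D3, which had 248.8 CPM. Of the 9 members, *C3*, *Cfb* and *Cfp* were at least 2-fold higher than in microglia, against 6.76% of all genes, and *C1qa*, *C1qc* and *C4b* at least 2-fold lower, against 14.4%. Against Ly6C high monocytes-like, the 3 C1q chains, *C4b* and *C3ar1* were higher (14.1% of all genes) and *C3* was lower (7.10%), with a log2 ratio of 3.41 for summed C1q and −3.14 for *C3*. Both comparisons use the same infiltrating-like cells.

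*C3ar1* encodes the receptor for C3a and was read out in microglia and macrophages. Microglia-like cells had 195.6 CPM in brain S3 and 280.1 in brain D3, a log2 ratio of 0.52, and infiltrating-like macrophages had 336.0. *Lyve1*+ cells had 209.4 CPM in brain S3, 298.5 in brain D3, 320.0 in dura S3 and 392.8 in dura D3, and *Lyve1*− cells 231.6, 327.9, 280.2 and 376.2 CPM. The D3 library was the higher in each of these pairs, by less than 2-fold. Mature granulocytes-like held between 0 and 10.8 CPM.

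*C5ar1*, the C5a receptor gene, was high in both granulocytes and macrophages. Mature granulocytes-like had 728.6 CPM in brain S3, 690.7 in brain D3, 621.7 in dura S3 and 595.6 in dura D3, immature ones 419.3, 357.9, 329.1 and 376.5 CPM, and precursors 105.3 CPM in dura S3 and 151.2 in dura D3. The gene thus stood in the opposite order to *C3* along the granulocyte line. *Lyve1*+ cells had 472.8 CPM in brain S3, 458.6 in brain D3, 394.6 in dura S3 and 559.8 in dura D3. *Lyve1*− cells had 136.6, 282.5, 199.1 and 394.3 CPM, with log2 ratios of 1.05 in brain and 0.99 in dura. Microglia-like cells had 123.2 CPM in brain S3 and 226.4 in brain D3 (0.88, 0.75 to 1.01), and infiltrating-like macrophages 270.0 CPM.

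Receptor levels were at least 2-fold higher at D3 in Ly6C high monocytes-like for both genes and both tissues. In cDC2-like cells and Ly6C low monocytes-like this held for *C5ar1* in both tissues and *C3ar1* in brain, and in *Lyve1*− cells for *C5ar1* in brain, as given above. In Ly6C high monocytes-like *C5ar1* was 26.0 CPM in brain S3, 231.4 in brain D3, 27.9 in dura S3 and 92.4 in dura D3, with log2 ratios of 3.15 (2.83 to 3.49) and 1.72 (1.42 to 2.04). *C3ar1* was 7.22, 65.9, 9.48 and 29.1 CPM, with log2 ratios of 3.19 (2.58 to 3.87) and 1.62 (1.08 to 2.18). The sham libraries were alike and the brain D3 library lay above the dura D3 library for both genes; whether the tissues differ in this could not be tested. Of the members compared in this class, 5 of 7 were at least 2-fold higher in brain, against 3.87% of all genes, and 6 of 8 in dura, against 1.58%, and none was lower, against 2.96% and 1.12%. Besides the receptors, these counts hold the 3 C1q chains and, in dura, *C4b*. In dura D3, *C1qa* (143.3 CPM), *C1qc* (100.6 CPM) and *C4b* (9.68 CPM) lay below the T-like and B-like background of 263.7, 163.5 and 22.4 CPM, and *C1qb* (256.6 CPM) near its 238.9 CPM. Each of these levels lay above that of B-like cells alone and below that of T-like cells alone. For the receptors the background was lower than the levels of the monocytes, with 1.65 and 13.5 CPM of *C5ar1* and 1.10 and 15.8 CPM of *C3ar1* in brain S3 and brain D3. With that background subtracted the brain log2 ratios were 3.16 for *C5ar1* and 3.03 for *C3ar1*. A *C5ar1* UMI was seen in 19.7% of Ly6C high cells of brain S3 and 68.1% of brain D3, and after thinning every cell to 2000 UMIs in 6.11% and 29.3%. T-like cells, which should lack the gene, gave 1.03% and 6.82%, and 0.171% and 2.27% after thinning, and the median depths were 14052 and 13910.5 UMIs for the monocytes and 7154.5 and 5962 for the T-like cells. The 8 infiltrating macrophage markers, all detected, summed to 2736 CPM in the Ly6C high cells of brain S3 and 4354 in brain D3, and to 3307 and 3222 CPM in dura S3 and dura D3, where *Gpnmb* was at 0 in dura S3. The 12 stress genes summed to 17550, 9025, 10960 and 7675 CPM in brain S3, brain D3, dura S3 and dura D3. The part of either in the receptor levels was not tested.

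In cDC2-like cells *C5ar1* was 5.87 CPM in brain S3, 61.8 in brain D3, 5.79 in dura S3 and 35.4 in dura D3, with log2 ratios of 3.40 in brain and 2.61 in dura. *C3ar1* was 14.5, 45.6, 20.1 and 35.0 CPM, with log2 ratios of 1.66 and 0.80, but in cells thinned to 2000 UMIs the brain ratio of *C3ar1* was −0.50. The infiltrating macrophage markers summed to 292.1 and 1475 CPM in the cDC2-like cells of brain S3 and brain D3. Their part in these ratios was not tested. Ly6C low monocytes-like, the patrolling blood monocytes, had *C5ar1* at 48.1 CPM in brain S3, 169.4 in brain D3, 79.1 in dura S3 and 166.7 in dura D3, with 33 to 195 cells per library. Their *C3ar1* was 11.5 CPM (6 UMIs) in brain S3, 60.2 in brain D3, 5.11 in dura S3 and 39.2 in dura D3, with too few UMIs in dura for a comparison. The plots of the receptors with *Cfp* and *C4b* show the 4 genes over the same classes.

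**Figure D4:**
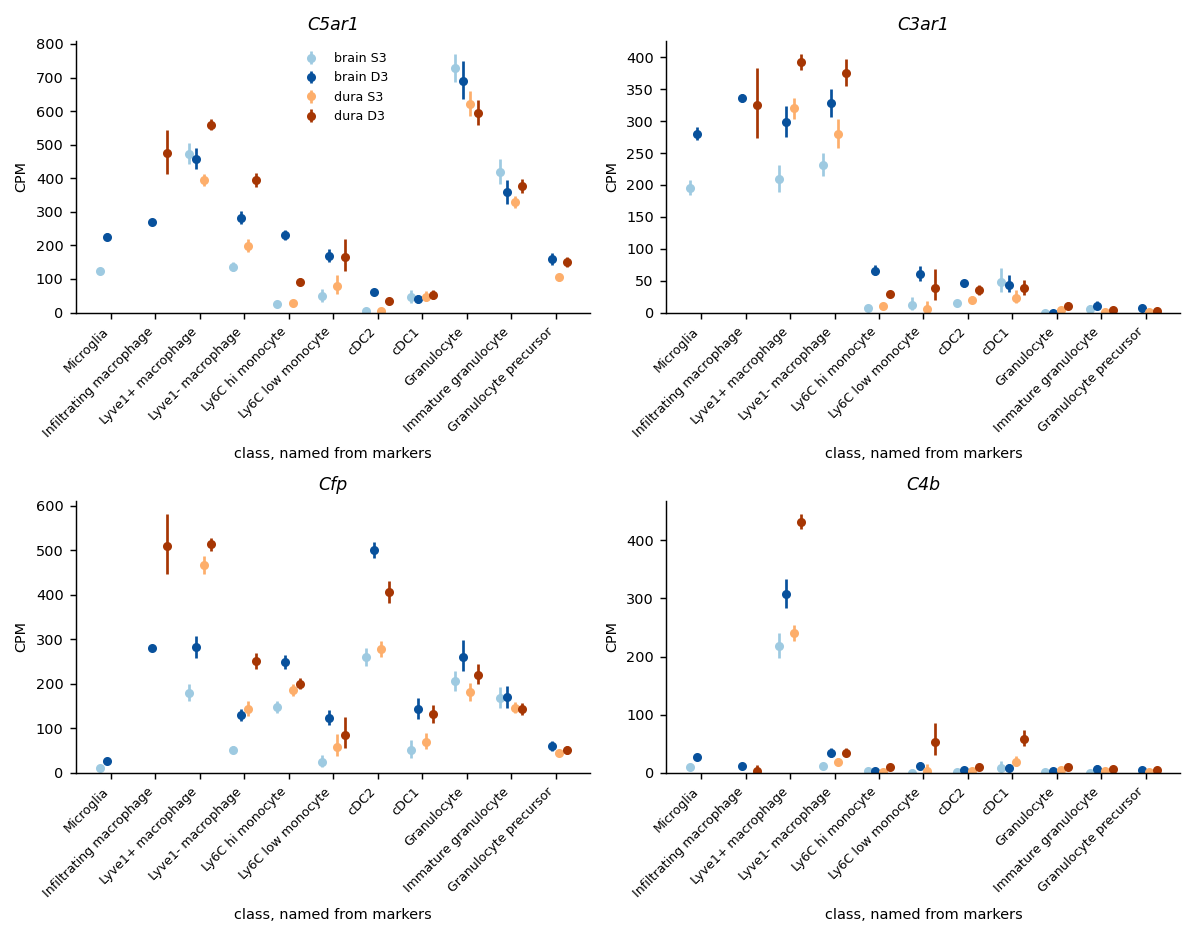
Levels (CPM, linear axes from 0) of *C3ar1*, *C5ar1*, *Cfp* and *C4b* in the main myeloid classes, 1 dot per library with its 95% exact Poisson interval as a line. *C5ar1* of Ly6C high monocytes-like reads 26.0 CPM in brain S3 and 231.4 in brain D3, and *C4b* stands out in *Lyve1*+ cells at 217.5 to 431.9 CPM.

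Across 58 combinations of class and library with at least 50 cells, the members fell into a few shared patterns among 12855 genes. These are Pearson correlations of log2(CPM + 1) over points that share libraries, depth and free RNA, so they only describe likeness. The C1q chains correlated with each other at 0.991 to 0.996, then with *Fcrls*, a microglial Fc receptor-like gene, at 0.962 for *C1qa*, and with *Rab3il1* at 0.965 for *C1qb*. *C3ar1* was nearest to *C1qb* (0.951), *Cttnbp2nl* (0.941) and *Rab3il1* (0.939). *C3* was nearest to *G6pdx* (0.936), *Dgkg* (0.931) and *Hp* (0.924), the haptoglobin gene, and its correlation with *C1qb* was −0.02. *C4b* was nearest to *Folr2* (0.928), *Stab1* (0.886) and *Cbr2* (0.885), known from tissue-resident macrophages. *C5ar1* was nearest to *C5ar2* (0.906), the other C5a receptor, *Hnmt* (0.875) and *Csf3r* (0.872), the G-CSF receptor gene. *Cfp* had no close partner, with 0.826 for *5031439G07Rik* and 0.825 for *Pirb* and *Aph1c*, and *Cfb* was nearest to *Sdc3* (0.80), *Ifi207* (0.79) and *Tmem106a* (0.79).

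Of 44 other complement genes (pattern receptors, proteases, terminal components, regulators and integrin receptors), 34 were listed in any library. In the myeloid classes of brain, 11 of 72 gene and class pairs were at least 2-fold higher at D3 and 3 lower, against 2.82% and 2.66% of the pairs of all genes. In dura 9 of 70 were higher and 1 lower, against 1.64% and 1.35%. *Fcna*, a ficolin that starts the lectin arm, went from 54.0 to 143.0 CPM in brain (log2 1.41) and from 44.9 to 135.7 CPM in dura (1.596) in *Lyve1*+ cells. *Vsig4*, a macrophage receptor for C3 fragments, went from 6.07 to 47.8 CPM in *Lyve1*+ cells of dura (2.98), while *Cd55*, which encodes an inhibitor of the convertases, went from 42.1 to 10.9 CPM in those of brain. *Cd93*, once described as a C1q receptor, went from 57.1 to 156.9 CPM in Ly6C high monocytes-like of brain (1.46), and *C5ar2* from 4.71 to 17.6 CPM (1.91) in brain and from 5.38 to 11.4 CPM (1.08) in dura. *Fcnb*, the ficolin of the granulocyte line, stood highest in granulocyte precursors-like, at 973.2 CPM in dura S3, 820.6 in dura D3 and 642.5 in brain D3.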

How the data were processed

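CD45+ cells of brain and dura mater were profiled with the 10x Chromium 3′ v3 kit in 4 libraries. Per the labels the authors used Cell Ranger 3.1.0, Seurat 3.1.0 and mm10. The deposited values are natural log values, ln(1 + UMIs / total × 10000), and 100% of them gave back whole UMIs within 1e-06, summing to 49003977 to 115154317 per library. Groups were taken from the labels, with controls read as S3 and injured samples as D3. No deposited column was left unused (0). The submitted values cannot show strand, and whether reads of *C4a* and *C4b* were separated is not given in the sources used here.

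The filter kept cells in which over 1000 and under 6000 genes were detected and mitochondrial UMIs made up no more than 7%. Scrublet (scanpy 1.11.5) marked under 0.5% of the barcodes by its own threshold, so the highest scores were removed at 0.8% per 1000 barcodes. Cells were clustered with Seurat 5.3.0 (2500 variable genes, 30 components, resolution 0.6) with the complement genes left out, and clusters were named from 31 marker lists. A per-cell marker gate, which puts each cell in the list with the highest mean log value, was run as an alternative, and 4.91% of the cells lay within 0.1 of its next best list. Values were computed with Python 3.11.15, numpy 2.4.6, pandas 2.3.3 and scipy 1.17.1 and drawn with matplotlib 3.10.9. Levels are CPM with exact Poisson intervals, shares have exact (Clopper-Pearson) binomial intervals, and log2 ratios have exact conditional intervals. A gene not listed in a library counts as 0. A ratio was compared where each group had 20 or more cells and the sum of both held 50 or more UMIs, and called at 2-fold or more. The scripts were tested on simulated data.

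All 9 members are named. Other complement genes are named up to 5 per direction and comparison, by size of the ratio, and for each member the 3 genes with the highest Pearson correlation. Members and lists were chosen with earlier results of these data known. Alternatives were the resolution, the cell filters, doublets, the gate, the variable genes, thinning to 2000 UMIs, the mean over cells, the scaling, subtraction of the T-like and B-like level, 2500 cells per library, the UMI minimum and Spearman correlation. Leaving out cells with granulocyte RNA was added after seeing the data. Positions are from GENCODE vM21 and promoters from RefSeq.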

Additional observations from a re-analysis of the deposited data

Results flagged for a closer look

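In 3 pairs of a gene and a class the D3 over S3 ratio took opposite directions in brain and dura with both counting intervals clear of 0, and with 1 library per group the difference between the tissues was not tested. In gamma-delta T-like cells the log2 ratio of *C1qa* was 2.55 in brain and −0.56 in dura, and that of *C1qc* was 2.47 and −0.51. Summed C1q in these cells was 105.1 CPM in brain S3, 695.0 in brain D3, 923.1 in dura S3 and 689.6 in dura D3, so brain S3 stood apart from the other libraries. In dura S3 and brain D3 the median cell held 1 C1q UMI, and 10% of the cells held 87.9% and 62.8% of them. The *Lyve1*+ macrophage markers *Pf4* and *Mrc1* stood at 253.3 and 111.8 CPM in these cells of dura S3, and at 5.47 and 4.38 CPM in brain S3. The part of macrophage RNA in these ratios was not tested. In immature granulocytes-like the log2 ratio of *C5ar1* was −0.23 in brain and 0.19 in dura, both well under 2-fold.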

How the results depend on the processing

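No paired analysis was possible because each condition has 1 library, and leaving out a replicate could not be done for the same reason. Of the pairs of members and myeloid classes, 27 were past 2-fold in brain, 16 in dura and 8 between the sham tissues. The brain count was 14 at resolution 0.3, where 41 pairs could be compared because the *Lyve1*−, cDC2 and Ly6C low classes were not found, 14 under the per-cell marker gate, 17 with 2500 cells per library and 15 with cells thinned to 2000 UMIs. The dura count was 9 with thinned cells, 10 with the T-like and B-like level subtracted and 10 with at least 200 UMIs. The count between the sham tissues was 5 at resolution 0.3, 21 with doublets kept, 14 with complement genes kept among the variable genes, 4 with thinned cells and 19 with no minimum of UMIs. Between infiltrating-like macrophages and microglia-like cells 6 members were past 2-fold, and 4 to 7 under the alternatives. The cause of these shifts was not tested beyond the number of pairs. Of 57 called values, those that could be computed kept their direction in 57 of 57 with doublets kept, at resolution 1.2, with no filter on cells, with the mean over cells, with the other scaling and without the cells holding granulocyte RNA, a setting chosen after seeing the data, and in 38 of 43 under the gate, 38 of 39 with the T-like and B-like level subtracted, 53 of 55 with 2500 cells and 55 of 57 with thinned cells. Fewer stayed at 2-fold or more, namely 30 under the gate, 35 with that level subtracted, 36 with 2500 cells and 46 with thinned cells, and 50 to 57 of 57 under the former settings. Log2 ratios that changed direction under the gate were those of *C1qa* (−0.18), *C1qb* (−0.0297) and *C1qc* (−0.23) in granulocytes between the sham tissues, *C1qa* (−0.0440) in immature granulocytes of brain and *C3* (1.02) in *Lyve1*+ cells of brain. With the lymphocyte level subtracted *C1qb* was −0.64 in immature granulocytes of brain. With thinned cells *C4b* was −1.755 in cDC1-like cells of dura and *C3ar1* −0.50 in cDC2-like cells of brain, and with 2500 cells *C1qa* was −0.29 and *C1qc* −0.45 in cDC2-like cells of brain. Depth limited *Cfb* in particular, and a ratio of a scarce gene such as *C4b* outside *Lyve1*+ cells rests on few UMIs.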

Other observations

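In 3 clusters that stayed unnamed, the members were also read out. A cluster of 155 cells, of which 138 came from brain D3, led with *Cxcl3* and *Siglecf* and held 808.0 CPM of *C5ar1*, 212.2 CPM of *C3* and 18.1 CPM of *C3ar1* in brain D3. A cluster of 213 cells that carried T cell markers together with those of *Lyve1*+ macrophages held *C4b* at 123.8 CPM in brain S3, 62.0 in brain D3, 102.9 in dura S3 and 287.6 in dura D3, and *C1qb* at 3649 to 4732 CPM. A cluster of 184 cells that carried Ly6C low monocyte markers with those of granulocytes held *C3* at 229.8 CPM in brain S3, 226.3 in brain D3 and 282.2 in dura S3.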
